A study of Xenopus laevis with 6 samples.

Results

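Cytosolic ribosomal proteins are the protein parts of the ribosome in the cytoplasm, which assembles them with ribosomal RNA into a small and a large subunit. The small subunit (genes rps and rpsa) reads the messenger RNA, and the large subunit (genes rpl and rplp) joins the amino acids. In vertebrates their messenger RNAs begin with a tract of pyrimidines that couples their translation to growth signals, and in early Xenopus embryos their making is known to be held back first and stepped up later. The members were taken by name: every probe set that the array's annotation ties to a single gene symbol of the rps, rpl, rplp or rpsa families, with the rps6k kinases left out. This gave 94 probe sets for 74 of the 7531 genes with a symbol on the array. The 74 symbols stand for 65 proteins by name, 22 of the small and 43 of the large subunit. X. laevis carries many genes in pairs from an old genome duplication, marked .L and .S, and 36 of the symbols were .L, 37 were .S and 1, rps9, had no mark.

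The tissue was flank tissue with the rudiment of the larval kidney (pronephric explants) of Xenopus laevis at stage 24, in 3 pools of explants treated with bhh and 3 pools of untreated explants. Each pool held 300 explants and was hybridised to 1 Affymetrix array of 15611 probe sets. bhh is banded hedgehog, a secreted signalling protein; its gene is listed as ihh today. How it was supplied is not stated in the labels, which name no mock-treated group, genotype or strain. Pools were numbered 1 to 3 in each group, and nothing says whether equal numbers share a clutch or day, so p-values measure the spread between these pools, which may be technical. The values are the authors' array signals, in arbitrary units on a linear scale, with each array scaled to a common level, and every difference below is of log2 signals, bhh minus untreated. The signal of ihh.S was 2967 ± 149 in bhh-treated explants and 22.7 ± 11.7 in untreated ones (SD, n = 3 each), so it sides with the labels. The untreated signals lay under the control level of 37.6 that is explained below, and the bhh-treated signal was 78.9 times that level. Of 11618 probe sets tested over the whole array with limma, 160, or 1.38%, passed an adjusted p of 0.05.

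Ribosomal protein messenger RNAs gave strong signals in both groups. Of the 94 probe sets, 82, from 70 symbols and 62 proteins, had a mean signal between 4134 and 29012, and they are called bright here. The remaining 12 had a mean signal of 1101 at most, and 10 of them lay under 250. The line at 4000 was placed in this gap after the values were seen. A control level of 37.6, under which 95% of the signals of 44 control probe sets for bacterial and tag RNA lie, was undercut on at least 1 array by 5 members and on all 6 arrays by 2, both dim. Among the 100 probe sets with the most signal on an array, between 36 and 41 were members. Signal also depends on how well a probe set binds, so members are not ranked here by level.

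No ribosomal protein probe set passed the limma test: 0 of 90 tested members were higher and 0 were lower at an adjusted p under 0.05. Over all probe sets 0.740% were called higher and 0.637% lower, so for 90 probe sets these shares also come to a count near 0. At an unadjusted p under 0.05, 0 members were higher and 2 lower, against 6.40% and 5.81% of all probe sets. The members' own differences were small and mostly of one sign. Their median was -0.18, with 81 of 90 below 0, while the median over all tested probe sets was 0.0027 with 49.5% below 0. For the bright members the median was -0.18 too, a signal 0.885 times that of untreated explants, and 10% and 90% of them lay under -0.27 and -0.04. Both subunits gave the same picture. The 34 bright small subunit probe sets had a median of -0.18 with 30 below 0, and the 48 of the large subunit a median of -0.18 with 46 below 0.

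This median depended on the scaling and on single arrays. Quantile normalization, which forces all arrays to one distribution of signals, brought the members' median to -0.025 with 54 of 90 below 0. A cyclic loess normalization, chosen after seeing the data, gave -0.076 with 70 below 0. Members made up 36 to 41 of the 100 strongest signals on each array. Fitting the arrays to one another at this end also takes out a shift that strong signals share, whatever its source. Without bhh array 3 the median was -0.04, without untreated array 1 it was -0.10, and without bhh array 1 it was -0.29. Neither normalization called a member in either direction, against 0.706% higher and 0.706% lower over all probe sets with quantile normalization and 0.714% and 0.706% with cyclic loess. Over all signals above 4000, the 82 members had a median of -0.18 with 92.7% below 0, and the 506 other probe sets one of -0.07 with 63.6% below 0. How far they differed depended on the range of signal. The 43 members with a mean over 16000 had a median difference of -0.19 with 100% below 0, and the 63 other probe sets of that range had -0.18 with 95.2% below 0. Between 4000 and 16000 the 39 members had a median of -0.16 with 84.6% below 0, and the 443 others -0.05 with 59.1% below 0. Within this range members and others were not matched in level. Their medians were -0.060 and 0.006 with quantile normalization, and -0.076 and 0.015 with cyclic loess. In the plot of difference against signal the median of the other probe sets is near 0 up to 4000 and lower above it.

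**Figure D1:**
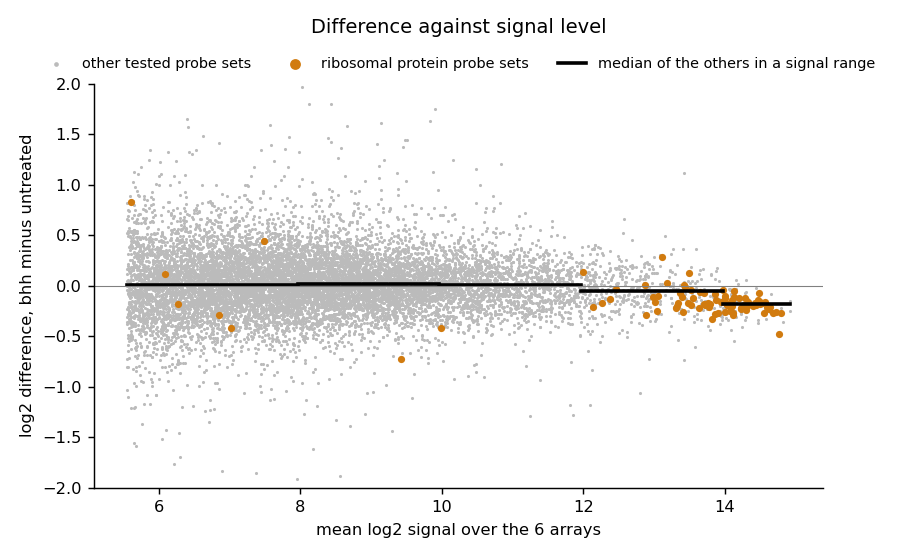
Log2 difference in signal (bhh minus untreated, vertical) against mean log2 signal over the 6 arrays (horizontal) for the probe sets tested. Orange points are ribosomal protein probe sets, grey points all others, black lines the median of the others within 5 ranges of mean signal; 12 other probe sets beyond 2 either way are not drawn. Most orange points lie at the right end and below 0. Over 16000 the members' median of -0.19 is near the black line at -0.18, and between 4000 and 16000 their median of -0.16 is below the black line at -0.05.

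The 6 arrays differed more within a group than the groups differed from each other. The median signal over the bright members was 18276, 14811 and 12690 on bhh arrays 1, 2 and 3, against 19534, 16217 and 15046 on untreated arrays 1, 2 and 3. Array 1 was the highest and array 3 the lowest in both groups, and the groups overlapped. Their means were 15259 ± 2820 in bhh-treated and 16932 ± 2328 in untreated explants (SD, n = 3 each). Array 1 exceeded array 3 by 0.48 in bhh-treated and by 0.30 in untreated explants (log2, median over bright members), both more than the 0.18 between the groups. The members' share of an array's summed signal followed: 12.0%, 10.6% and 9.35% on the bhh arrays and 12.5%, 11.4% and 10.9% on the untreated arrays.

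The members moved together from array to array. In bhh-treated explants 67 of the 82 bright members were highest on array 1 and 76 were lowest on array 3. In untreated explants 60 were highest on array 1 and 55 lowest on array 3. Other strong signals did the same. Over 16000, array 1 exceeded array 3 by 0.61 in bhh-treated and 0.31 in untreated explants for the 43 members, and by 0.55 and 0.42 for the 63 others. Between 4000 and 16000 it did so by 0.36 and 0.28 for the 39 members and by 0.22 and 0.14 for the 443 others. The median signal of the hybridization controls, RNAs added to the labelled sample, was 1795, 1393 and 780 on bhh arrays 1, 2 and 3 and 2235, 1233 and 879 on untreated arrays 1, 2 and 3. The GAPDH ratio of 3′ to 5′ signal, a measure of how complete the labelled RNA is, was 4.42, 3.67 and 3.01 on the bhh arrays and 4.10, 3.59 and 3.31 on the untreated arrays. Both were highest on array 1 and lowest on array 3 in each group, as the members were. The same ratio for actin was lowest on array 1, with 0.158, 0.605 and 0.665 on the bhh arrays and 0.191, 0.344 and 0.342 on the untreated arrays. The part of these measures in the members' signals was not tested. In the plot of deviations by array bhh 3 stands lowest.

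**Figure D2:**
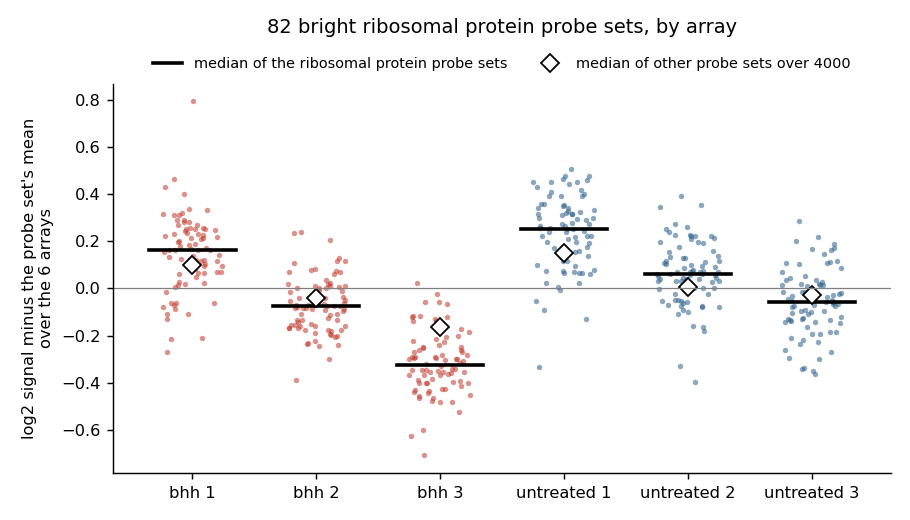
Log2 signal of each of the 82 bright ribosomal protein probe sets minus its own mean over the 6 arrays (vertical), by array. Points are probe sets, black bars the members' median, and diamonds the median of other probe sets with a mean signal over 4000. The members' medians are 0.16, -0.08 and -0.33 on bhh arrays 1 to 3 and 0.25, 0.06 and -0.06 on untreated arrays 1 to 3.

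Set against the untreated array of the same number, the bright members were mostly lower in bhh-treated explants. The median difference was -0.08 for number 1, -0.13 for number 2 and -0.28 for number 3, with 61, 68 and 72 of 82 members below 0. Of the 90 tested members 50, or 55.6%, were lower in all 3 comparisons, against 20.3% of all probe sets. Of the 82 bright members 46 were, against 35.8% of the other probe sets over 4000. Over 16000 this held for 60.5% of the members and 65.1% of the others, and between 4000 and 16000 for 51.3% and 31.6%. Deviations from the group means correlated between same-numbered arrays. For number 2 this was 0.178, hardly more than the 0.173 between untreated 2 and bhh 3. A fit with the replicate number as a block was therefore set beside the first. It called 0 members higher and 3 lower, or 3.33% of 90, against 3.65% and 2.66% of all probe sets, so the share called lower was close to that over the array. The 3 were rps29.S, rpl3.L and rpl35a.S, each at 1 of its probe sets, and they are described below. The rpl3.L and rpl35a.S probe sets were dim. Over 16000 the block called 2.33% of the 43 members lower, against 9.52% of the 63 others. Between 4000 and 16000 it called 0 of the 39 members lower, against 7.45% of the 443 others. At an unadjusted p under 0.05 the blocked fit had 2 members higher and 22 lower, or 24.4%, against 11.6% and 10.1% of all probe sets. Over 16000 it had 25.6% of the members and 44.4% of the others lower.

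Of 82 bright members, all 82 had a 95% interval for the difference that lay within 1 either way on the log2 scale, a 2-fold change, and 81 of these intervals held 0. The outermost bounds were -0.89 and 0.68. The median SE was 0.173, or 0.102 with the replicate block. Within groups the bright members had a median SD of 0.240. Over 16000 the SD was 0.271 for members and 0.263 for the others, and between 4000 and 16000 it was 0.199 and 0.169. Quantile normalization brought the SD of the bright members to 0.122.

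**Figure D3:**
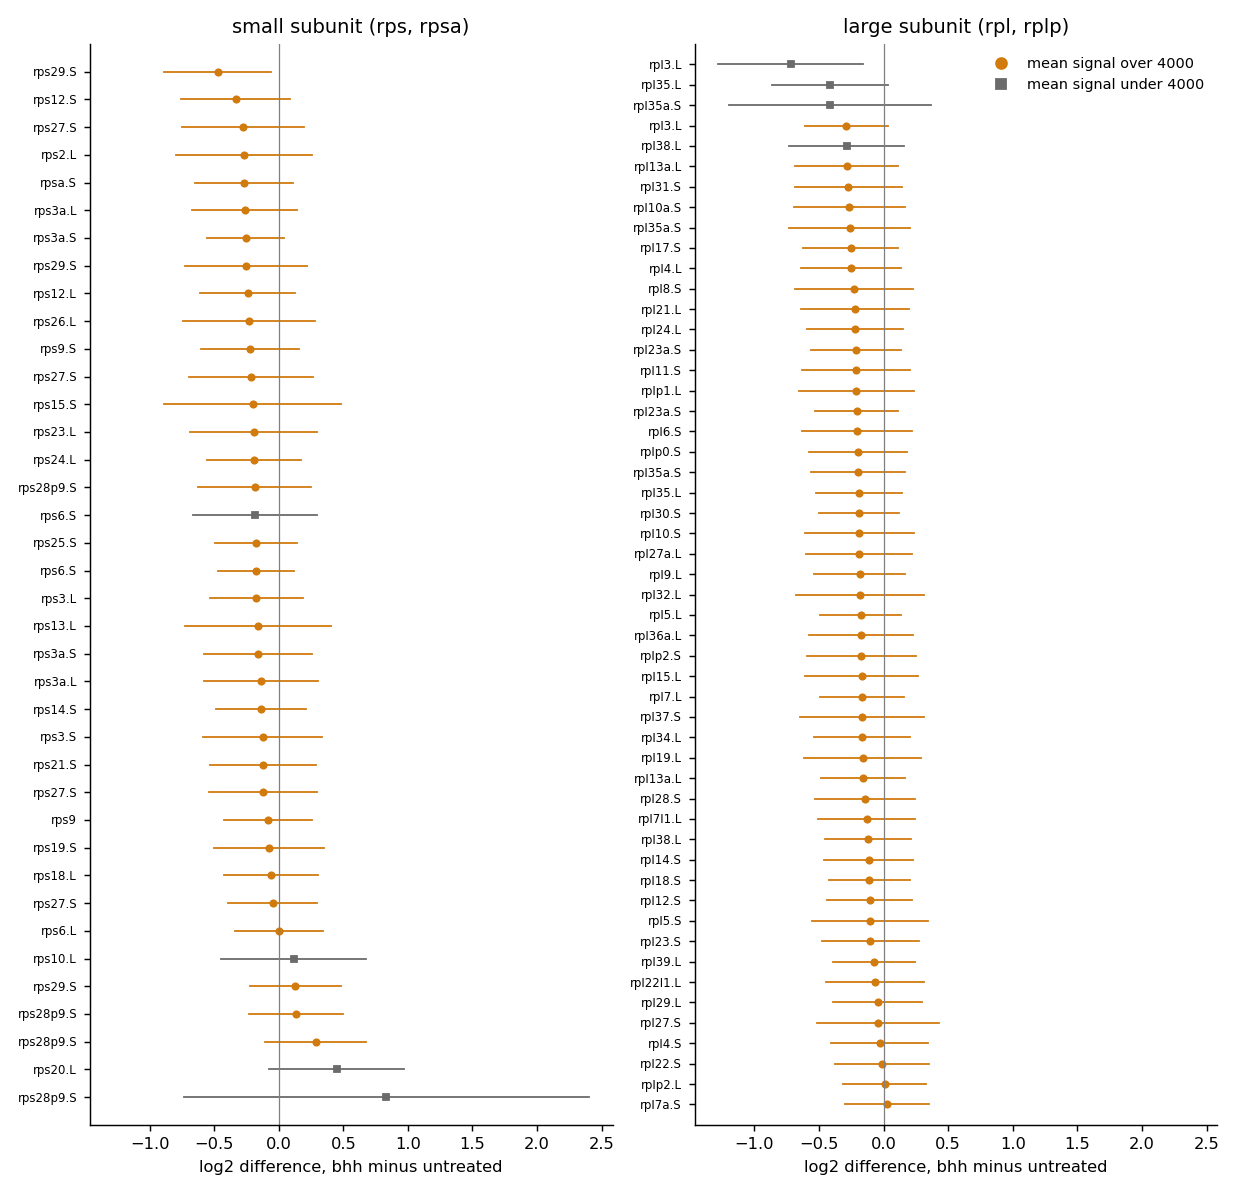
Log2 difference in signal, bhh minus untreated, with its 95% interval from limma (horizontal) for each of the 90 tested ribosomal protein probe sets, small subunit left and large subunit right, ordered by difference. A gene with several probe sets has a row for each; circles have a mean signal over 4000 and squares under it. Of the points, 81 lie left of 0, and 2 intervals exclude 0, for rps29.S at -0.47 and the dim rpl3.L probe set at -0.72.

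Among the small subunit genes, rps29.S had the lowest difference of the bright members. It encodes a small zinc-binding protein. Its _s_at probe set had signals of 29135, 24514 and 18284 on the bhh arrays and 32360.3, 33487 and 32243 on the untreated arrays. The 3 untreated arrays lay close together and above all bhh arrays. The difference was -0.47 ± 0.19 (SE; limma adjusted p = 0.342; blocked adjusted p = 0.025), and it was -0.20 with quantile normalization and -0.29 without bhh array 3. The other probe sets of rps29.S did not give this value. A second one had 19304, 15563 and 13158 on the bhh arrays against 23597, 20205 and 14073 on the untreated arrays, a difference of -0.25 with overlapping groups. The third had 12474, 12539 and 11016 against 11640.3, 12588 and 8993, a difference of 0.13 ± 0.16. A name ending in _s_at marks a probe set whose probes match more than 1 transcript, so the gene behind the lowest value is uncertain.

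The next lowest small subunit members were rps12.S, at -0.33 ± 0.19 (limma adjusted p = 0.537), rps27.S at its _a_at probe set, at -0.27 ± 0.21, and rps2.L, at -0.27 ± 0.24. The rps12.S signals were 16376, 12920 and 10033 on the bhh arrays and 17976, 16895 and 13975 on the untreated arrays, with overlap. rps2, at the channel where messenger RNA enters, had 34764, 23265 and 17054 on the bhh arrays and 33376, 26797 and 26985 on the untreated arrays, so bhh array 1 was the highest of all. rps27.S, another zinc-binding protein gene, had 4 probe sets, all bright, with differences between -0.27 and -0.05. For rps3a.S, the probe set with a plain _at ending had 10729, 9820 and 9244 on the bhh arrays against 11909, 11175 and 12463 on the untreated arrays. These groups did not overlap, yet the difference of -0.26 ± 0.14 did not pass (limma adjusted p = 0.486), and the second rps3a.S probe set, at -0.16, overlapped. In all, 5 of the 90 members, or 5.56%, had bhh arrays wholly below the untreated arrays and 0 wholly above, against 9.01% and 9.30% of all probe sets. The 5 were these rps29.S and rps3a.S probe sets and dim probe sets of rpl3.L, rpl35.L and rpl38.L.

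rps6 encodes the protein that S6 kinases phosphorylate in response to growth signals. rps6.L had 12826, 9777 and 10439 on the bhh arrays and 10962, 11965 and 9927 on the untreated arrays, a difference of 0.003 ± 0.15. rps6.S had 4227, 5163 and 4508 against 4990.2, 5725 and 4955, a difference of -0.17 ± 0.13. rps3, part of the entry channel for messenger RNA, had -0.17 ± 0.16 for the .L and -0.13 ± 0.21 for the .S gene. rpsa.S, whose product is also known as a laminin receptor in mammals, had 20213, 15219 and 13772 on the bhh arrays and 21213, 18126 and 19215 on the untreated arrays. This gave -0.27 ± 0.17 (limma adjusted p = 0.590), with bhh array 1 above 2 of the untreated arrays. The widest spread within a bright member was that of rps15.S, near the decoding site. It had 17762, 7837 and 6277 on the bhh arrays and 11409, 12208 and 9538 on the untreated arrays, so its bhh arrays lay both above and below all the untreated ones. Its difference was -0.20 ± 0.31. rps13.L followed, with 33453, 20447 and 17591 against 34458, 21372 and 22953 and a difference of -0.16 ± 0.26.

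Among the large subunit genes, rpl3.L gave the lowest tested value. Its product reaches towards the site where peptide bonds are made. Its dim probe set had 631, 739 and 333 on the bhh arrays against 924, 981 and 766 on the untreated arrays, and the groups did not overlap. The difference was -0.72 ± 0.25 (limma adjusted p = 0.271; blocked adjusted p = 0.0051), and -0.37 without bhh array 3. The bright probe set of the same gene had 8098, 6410.4 and 6186 against 8832, 7769 and 8519, a difference of -0.29 ± 0.15 that passed in neither fit (blocked adjusted p = 0.104), and here bhh array 1 lay inside the untreated range. rpl35a.S, which is among the genes mutated in the human disorder Diamond-Blackfan anaemia, had a similar split. Its dim probe set had 1425, 978 and 492 on the bhh arrays against 1754, 1147 and 808 on the untreated arrays. The groups overlapped, and each bhh array was below the untreated array of its number. The difference was -0.42 ± 0.36 (limma adjusted p = 0.698; blocked adjusted p = 0.048). Without bhh array 3 this difference was 0.0059, without untreated array 1 it was -0.13, and without bhh array 1 or untreated array 3 it was -0.76 or -0.69. The bright probe sets of rpl35a.S gave -0.26 ± 0.21 and -0.20. In both genes the dim probe set has A1 in its name where the bright ones have S1. Other A1 probe sets were bright, such as that of rpl10.S, and in rpl35.L the dim and the bright one both have A1. Whether the dim and bright probe sets read the same RNA was not tested.

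**Figure D4:**
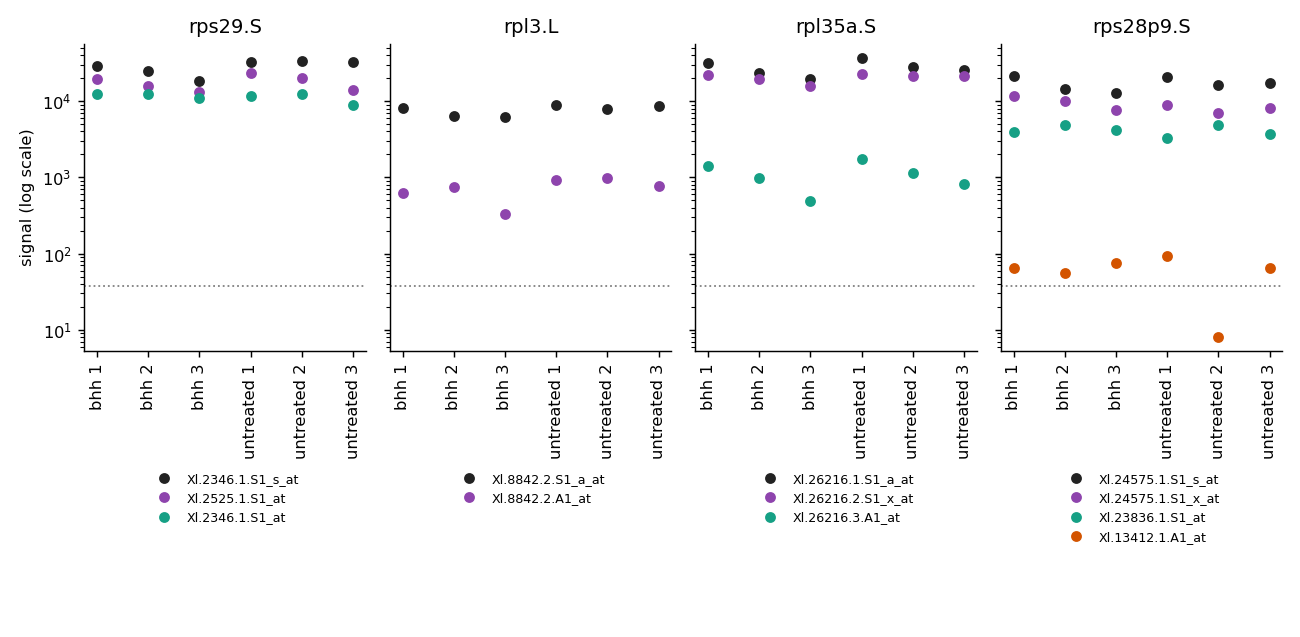
Signal on a log scale (vertical) on each array for the probe sets of 4 genes, rps29.S, rpl3.L, rpl35a.S and rps28p9.S; each colour is 1 probe set and the dotted line is the control level of 37.6. The rps29.S probe set at the top is separated between the groups, at 18284 to 29135 on bhh arrays and 32243 to 33487 on untreated arrays, while its other probe sets overlap.

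The proteins that bring the ribosome's own small RNA into the large subunit, rpl5 and rpl11, are also known in mammals to bind the p53 regulator Mdm2 when ribosome assembly fails. rpl5.L had 12173, 14878 and 12799 on the bhh arrays and 14778, 15369.9 and 14770.0 on the untreated arrays, a difference of -0.18 ± 0.14. rpl5.S had -0.10 ± 0.20, with untreated array 2 the lowest of all 6 arrays at 6452. rpl11.S had 14637, 13337 and 11358 against 19205, 15099 and 11927, a difference of -0.21 ± 0.19 with overlap. rpl10.S, needed late in large subunit assembly, had -0.19 ± 0.19, from 26308, 20141 and 16744 on the bhh arrays and 27104, 22979.9 and 21131 on the untreated arrays. rpl13a.L had -0.29 ± 0.18 (limma adjusted p = 0.578) at its _s_at probe set and -0.16 at the other. rpl4.L had -0.25 ± 0.18. Of the 3 tested members with the smallest spread within groups, rps3a.S and rpl5.L are given above, and the third, rpl30.S, had 12900.4, 13473 and 11529 on the bhh arrays against 15437, 14509.9 and 13298 on the untreated arrays. Its difference was -0.19 ± 0.14 (limma adjusted p = 0.644), and it was -0.06 with quantile normalization.

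The acidic proteins rplp0, rplp1 and rplp2 form the stalk of the large subunit, which recruits elongation factors. rplp0.S had 23498, 20652 and 16759 on the bhh arrays and 25719, 20550.5 and 23294 on the untreated arrays, a difference of -0.20 ± 0.17. rplp1.L had 30136, 23868 and 18249 against 31747, 25416 and 25246, a difference of -0.21 ± 0.20. rplp2.S had 20548, 14729 and 12541 against 19526, 17389 and 15982, a difference of -0.17 ± 0.19. In all of these the bhh and untreated arrays overlapped. The homeolog rplp2.L stood at 0.008 ± 0.15, with 7861, 7878 and 6896 on the bhh arrays and 7049.9, 8766 and 6802 on the untreated arrays.

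Bright members with a difference above 0 numbered 6, and none passed the test. The highest was rps28p9.S, a small subunit gene under the symbol that RefSeq gives it, at its _x_at probe set, with 11845, 10147 and 7629 on the bhh arrays and 8768, 7007 and 8241 on the untreated arrays. The groups overlapped, and the difference was 0.29 ± 0.18 (limma adjusted p = 0.566; blocked adjusted p = 0.170). Of the other probe sets of rps28p9.S, the _s_at one had -0.19 and another bright one 0.13 ± 0.17. A dim one had 65, 56 and 75 on the bhh arrays and 94, 8.1 and 64 on the untreated arrays, a difference of 0.83 ± 0.71, and untreated array 2 lay below the control level. Besides those of rps29.S, rps6.L and rplp2.L already given, the sixth was rpl7a.S, with 0.03 ± 0.15. Of 12 genes with several tested probe sets, rps28p9.S and rps29.S were the 2 whose probe sets differed in sign, and in 6 the probe sets lay within 0.2 of each other.

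Most dim members were second probe sets of a gene that also had a bright one. rpl35.L is an example: its dim probe set had 92.9, 121 and 128 on the bhh arrays against 147, 167 and 139.7 on the untreated arrays, without overlap, at -0.42 ± 0.20 (limma adjusted p = 0.447). Its bright probe set had -0.19. rpl38.L, a gene whose loss in mice alters the translation of Hox messenger RNAs, likewise had a dim probe set without overlap, with 107, 97.7 and 109 on the bhh arrays against 110.1, 145.5 and 129.9 on the untreated arrays. That difference was -0.29 ± 0.20 (limma adjusted p = 0.619), and the bright probe set had -0.12. Only dim probe sets were found for 4 symbols, rpl28.L, rpl3l.L and the small subunit genes rps20.L and rps10.L. rps20.L had 187, 246 and 202 on the bhh arrays against 107, 188 and 181 on the untreated arrays, a difference of 0.45 ± 0.24 (limma adjusted p = 0.492), with bhh array 1 below untreated array 2. rps10.L had 0.11 ± 0.25 at its tested probe set. The members left out of the tests for low signal were 4: rpl28.L, rpl3l.L and a second probe set each of rpl34.L and rps10.L.

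Paralogs that carry a ribosomal protein name with an added letter or number were few. rpl22l1.L had 12114, 10478 and 8680.3 on the bhh arrays and 12340.1, 11248 and 9134 on the untreated arrays, a difference of -0.07 ± 0.17. rpl7l1.L had 6347, 4759.9 and 4338 against 6498, 5052 and 5253, a difference of -0.13 ± 0.17. In both the groups overlapped, and the differences lay within the range of the other members. rpl3l.L, whose mammalian counterpart is made mainly in muscle, had 3.1, 9.6 and 4.8 on the bhh arrays and 13.0, 3.8 and 6.5 on the untreated arrays. All of these lay under the control level of 37.6, so no fold is given.

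Both homeologs had enough signal to be tested for 7 of the proteins, among 812 such pairs on the array. rpl28 also had both, but rpl28.L was left out for low signal. The ratio of .L to .S signal within each array was compared between the groups. No ratio passed: 0 of 7 were called by the limma test, against 0.246% of all pairs, and none was separated between the groups, against 13.9% of all pairs. With the replicate block none of the 7 passed either, against 0.493% of all pairs, and none had an unadjusted p under 0.05, against 7.27%. The differences were small. Their median size was 0.10, against 0.18 over all pairs, and the largest was that of rpl4. All 7 pairs were bright, all pairs together include dim ones, and pairs of like signal were not compared.

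For rpl4 the log2 ratio of .L over .S was 0.72, 0.42 and 0.24 on the bhh arrays and 0.79, 0.51 and 0.75 on the untreated arrays. The groups overlapped, and the change was -0.22 ± 0.16 (95% interval -0.58 to 0.13; limma adjusted p = 0.849 over all pairs). rplp2 had ratios of -1.39, -0.90 and -0.86 against -1.47, -0.99 and -1.23, a change of 0.18 with an interval of -0.21 to 0.57. rps6 changed by 0.18 with an interval of -0.21 to 0.56, and its bhh arrays, at 1.60, 0.92 and 1.21, enclosed the untreated ones at 1.14, 1.06 and 1.00. For rps3a the change was -0.10 (interval -0.36 to 0.15), and both of its probe sets end in _x_at, which marks probes that can bind other transcripts, so the .L and .S signals may share RNA. The intervals were -0.23 to 0.41 for rps12, -0.54 to 0.39 for rpl5 and -0.53 to 0.43 for rps3. In rps3 the untreated arrays spread widely, at -0.19, 0.05 and 0.84, while the bhh arrays lay at 0.15, 0.20 and 0.20. Since the probes of the .L and .S genes differ, a ratio shows how the pair shifts between arrays, not which gene has more RNA.

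**Figure D5:**
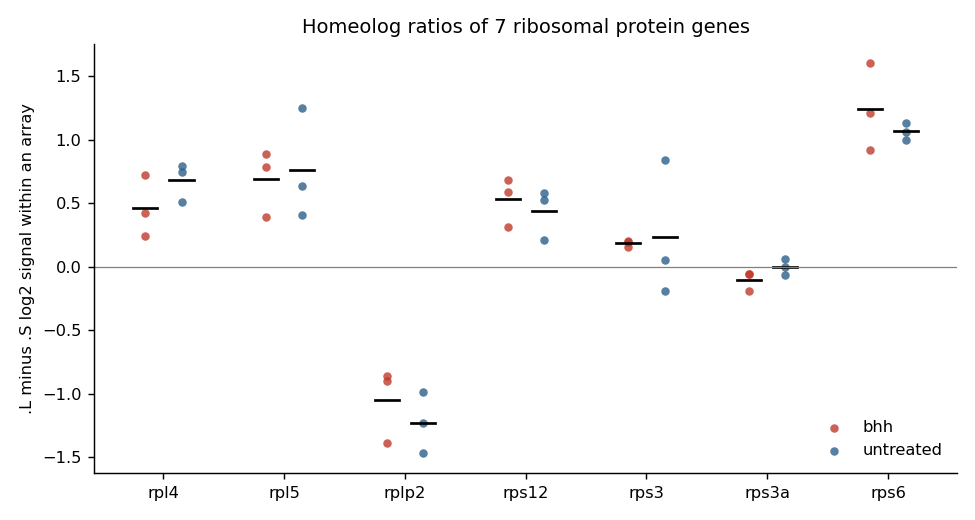
Log2 signal of the .L probe set minus that of the .S probe set on the same array (vertical) for 7 ribosomal protein gene pairs. Points are single arrays, bhh left and untreated right, and bars are group means of 3 arrays. In each pair the groups overlap, and the largest change in the mean is that of rpl4, at -0.22.

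Genes of neighbouring functions were set beside the members. Each symbol entered a list with its brightest probe set, which for the cytosolic ribosomal proteins gave 72 genes with a median of -0.18 and 67 below 0. The gene fau.L, which encodes a small subunit protein fused to a ubiquitin-like one, had -0.29 ± 0.20 (limma adjusted p = 0.608), within the members' range. Of 22 genes for other proteins with the same pyrimidine tract, such as elongation factors, 0 passed in either direction, 17 were below 0 and the median was -0.17. With the replicate block 2 of them were lower, eef1d.S (-0.64 ± 0.17, blocked adjusted p = 0.0021) and eef1g.L (-0.41 ± 0.19, blocked adjusted p = 0.034), both subunits of elongation factor 1. Their homeologs eef1d.L (-0.13) and eef1g.S (0.15) passed in neither fit. Nor did eef1b2.L (0.26) and eef1a1.S (-0.20), which belong to the same factor. Over all probe sets the block called 2.66% lower, and of the 63 other probe sets over 16000, eef1g.L among them, 9.52%. The bhh and untreated arrays of eef1g.L overlapped. With quantile normalization its difference was -0.22, and that of eef1d.S was -0.66. With quantile normalization the median of this list was -0.08.

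Ribosome assembly genes had a median near 0. Of 44 such genes 0 passed in either direction, 24 were below 0 and the median was -0.03. With the block 2 of the 44 were higher, against 3.65% of all probe sets. They were polr1c.L, a subunit of RNA polymerase I (0.43 ± 0.15, blocked adjusted p = 0.042), and bop1.L, which takes part in large subunit assembly (0.44 ± 0.18, blocked adjusted p = 0.049). The bhh and untreated arrays of bop1.L overlapped, and its homeolog bop1.S stood at 0.04 ± 0.16 (blocked adjusted p = 0.881). Mitochondrial ribosomal proteins build a separate ribosome inside mitochondria. Of 38 genes 0 passed, 28 were below 0 and the median was -0.14, which stayed at -0.16 with quantile normalization. With the block 1 of the 38 was higher and 2 were lower, against 3.65% and 2.66% of all probe sets. mrps17.L had 235 ± 35.3 in bhh-treated and 385 ± 75.0 in untreated explants (SD, n = 3 each), a difference of -0.70 ± 0.19 (limma adjusted p = 0.142; blocked adjusted p = 0.0056). mrps33.L had 0.47 ± 0.16 (blocked adjusted p = 0.032). The medians of these lists were not tested against each other, and the lists differ in signal level. Most assembly genes and the mitochondrial ones lay under 4000, where the median of other probe sets is 0.007 to 0.015 by range. Most members and most genes with the pyrimidine tract lay over 4000, where other probe sets also fall below 0.

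Summed markers of some tissues in the explant differed between the groups without overlap, and those of others overlapped. Such a sum can rest on few of its genes. In bulk RNA, fewer cells of a type and less RNA per cell cannot be told apart. Over all probe sets 0.740% were called higher and 0.637% lower, or 3.65% and 2.66% with the replicate block. The summed signal of the 14 muscle probe sets was 78921 to 97542 on the bhh arrays and 106454 to 122973 on the untreated arrays. Of these probe sets 0 were higher and 2 lower, myh8.L and myf5.L, or 1 higher and 7 lower with the replicate block. The 1 higher was myod1.S (0.79, blocked adjusted p = 0.0059). Its homeolog myod1.L (0.36), myl1.L (0.21) and myl1.S (0.06) were above 0 too, and 10 of the 14 were below 0. The median of the 14 was -0.39, or -0.34 with quantile normalization. For the 7 kidney rudiment markers the summed signal was 751 to 995 against 1563 to 1908, with 1 higher (osr1.L) and 2 lower (fxyd2.S and lhx1.L) in both fits. The means were 26.5 in bhh-treated and 627 in untreated explants for fxyd2.S, 35.7 and 421 for lhx1.L, and 282 and 143 for osr1.L. The other kidney markers, wt1.L, pax2.L, pax8.L and gata3.S, passed in neither fit. Of 6 epidermal markers 0 passed, or 1 lower with the block, and their sums overlapped, at 47263 to 70363 against 62439 to 82851. For the neural tube (5 markers) the sums were 1593 to 1712 against 1926 to 2101, and for the neural crest (6 markers) 778 to 1372 against 575 to 800.3. In both 0 passed, and with the block 1 neural tube marker was lower (tubb2b.S, blocked adjusted p = 0.024) and 2 neural crest markers were higher (sox9.S and foxd3.L). Of the 6 neural crest markers 1 was below 0, the homeolog foxd3.S, at -0.49 (blocked adjusted p = 0.137). Its bhh arrays all lay below its untreated arrays. Much of the neural crest sum was sox9.S, at 405 to 792 on the bhh arrays and 174.5 to 363 on the untreated arrays. Most of the neural tube sum was tubb2b.S, at 1050 to 1269 on the bhh arrays and 1438 to 1649 on the untreated arrays. The other neural tube markers had differences of 0.89 (neurod1.L), -0.23 (sox3.L), -0.02 (sox2.L) and 0.002 (sox3.S). For the endoderm (5 markers, 1 higher, or 4 with the block) the sums were 1982 to 2064 against 1192 to 1381. All of its calls were GATA genes: gata5.S in both fits, and gata5.L, gata6.L and gata6.S with the block only. The remaining marker, foxa1.S, passed in neither fit (blocked adjusted p = 0.085). The tissue in which these GATA genes were expressed was not measured, so these sums do not show a change in endoderm. For blood (3 markers, 0 passing, or 1 higher with the block) the sums were 194 to 248 against 147 to 226. tp63 of the epidermis and the globin genes hba4 and hbd lay under the control level. Their part in the members' signals was not tested.

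The naming used to pick members fits 80 names of the RefSeq table, and 15 of them had no member here. These 15 include rps19bp1, which is named as a binding protein and not as a ribosomal protein. Of the 15 names 4, rpl13, rps16, rps4x and rps7, are carried by probe sets that list several symbols. In all 17 probe sets that list several symbols include a ribosomal protein, and they were not analysed here.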

How the data were processed

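RNA from 3 bhh-treated and 3 untreated pools of explants was hybridised to 1 array each. Per the submitters' processing notes, MAS5 (version not given in the sources used here) made the deposited values, intensity values per probe set on a linear scale. It subtracts mismatch signal and scales each array, here to a 2% trimmed mean of 500.1. The arrays' median signals were 149.9 to 170.6, and no 2 arrays shared over 0.250% identical values. Precision is limited by the number of arrays.

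Of 15491 probe sets left without 120 controls, 9304 carried 1 symbol, 195 several and 5992 none. Symbols were updated by gene identifier through RefSeq (Xenopus_laevis_v10.1, for names only; 9227 matched, including all 94 members). The deposited intensities, floored at 1, were taken to log2. The lowest 25% by mean were left out, leaving 11618. These were fitted in R 4.3.3 with lmFit and trended eBayes of limma 3.58.1 (two-sided), with Benjamini-Hochberg adjustment over all of them. Homeolog ratios were fitted the same way over 812 pairs. The scripts were tested on simulated data.

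The members and lists were chosen with earlier results of these data known. Named members were the 8 with the smallest p in each direction, the 5 brightest and 5 dimmest, the 5 with the largest and 3 with the smallest spread, members of listed roles, paralogs and 5 homeolog pairs; in lists, up to 3 genes with the smallest p. rpl28.L, rpl34.L and further probe sets of named genes were given for completeness.

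Labels share the replicate numbers 1 to 3. Same-numbered arrays deviated together from their group means, with correlations of 0.407, 0.178 and 0.298, all over 0.1. Untreated 2 with bhh 3 gave 0.173 and untreated 3 with bhh 2 gave 0.147. What a number stands for is not given in the labels.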

Additional observations from a re-analysis of the deposited data

How the results depend on the processing

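No member was called by limma in any alternative except the replicate block, which called 3 lower. Those alternatives were quantile normalization, median scaling, offsets of 16 and 64, no filter or a 50% filter on dim probe sets, eBayes without trend, array weights, cyclic loess, subsets of the members, and leaving out each array. The members' median kept its sign in all of them, and lay between -0.29 and -0.04 without single arrays. Over all probe sets, where 160 were called, there were 95 without trend, 657 with array weights, 733 with the replicate block, and 60 (without untreated array 2) to 187 (without bhh array 1) without single arrays. Of 812 homeolog ratios 2 were called, against 1 without a filter, 0 with the 50% filter, 6 with array weights, 4 with the replicate block and 0 to 4 without single arrays. Of 43 named probe sets 3 passed with the block, and 4 moved by over 1 within-group SD, all with quantile normalization: rps29.S, rpl5.L, rpl30.S and rps12.L. Of the 43, none of which passed unblocked, 16 changed sign in at least 1 alternative. With quantile normalization these were rps27.S (0.0076), rplp1.L (0.027), rps13.L (0.045), rpl10.S (0.013), rpl22l1.L (0.016) and rpl4.S (0.012), with cyclic loess rpl22l1.L (0.020) and rpl4.S (0.028), with median scaling rplp2.L (-0.015) and rps6.L (-0.020), and with array weights rpl7a.S (-0.036), rplp2.L (-0.028), rps6.L (-0.11) and rpl4.S (0.057). Without single arrays 13 did, with ranges of -0.25 to 0.94 for the dim rps28p9.S probe set, -0.014 to 0.23 for the third rps29.S one and -0.76 to 0.0059 for the dim rpl35a.S one. The other ranges were -0.058 to 0.26 for rps10.L, -0.092 to 0.093 for rpl7a.S, -0.062 to 0.12 for rplp2.L, -0.65 to 0.10 for rps15.S, -0.44 to 0.049 for rps13.L, -0.33 to 0.066 for rpl5.S, -0.33 to 0.082 for rps3.S, -0.11 to 0.084 for rps6.L, -0.19 to 0.058 for rpl22l1.L and -0.22 to 0.071 for rpl4.S. The cause was not tested. On at least 1 array 5 dim members lay under the control level of 37.6.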
